A study of Mus musculus with 20 samples.

Results

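Interferon-stimulated genes were followed through RNA of mouse bone marrow cells sorted as Lin-cKit+Sca1+ (LSK cells), the fraction that holds blood stem cells and multipotent progenitors. The 44 genes were taken by name from a list of known interferon targets, with earlier results of these data known. All 44 were found among the 46078 Ensembl gene IDs of the deposited table. They comprised 4 nucleic acid sensors, 3 transcription factors, the modifier Isg15 with its protease Usp18, 19 antiviral effectors, 8 immunity GTPases and 8 other interferon-induced genes. The study set 4 genotypes that carry mutations found in leukaemia against wild type. The Idh1R132H group was Idh1LSL-R132H/+;Vav-Cre, the Idh2R140Q group was Idh2LSL-R140Q/+;Vav-Cre, the Idh2R172K group was Idh2LSL-R172K/+;Vav-Cre, and each holds 1 mutant allele that Cre switches on in blood-forming cells, where the Vav promoter is active. The Tet2-/- group was labelled with the null genotype alone, with no Cre named and no deleted exon stated. The WT group was +/+;Vav-Cre. All mice were C57Bl/6J of 3 to 4 months, and each group had 4 libraries of total RNA, each from a pool of 2 mice. Because the Tet2-/- label names no Cre, loss of Tet2 and absence of Cre cannot be told apart in the comparison with WT.

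Type I interferons bind a receptor whose kinases phosphorylate STAT proteins, and a complex that holds STAT2 and IRF9 then binds the interferon-stimulated response element in the promoters of target genes. Type II interferon works through a different site, the gamma-activated sequence, and is a strong inducer of the immunity GTPases (the Irgm and Gbp families), which attack the membranes around intracellular parasites and bacteria. Many target genes are transcribed at a low level without added interferon, stem cells included. Sca1, the product of Ly6a and one of the markers of the sort, is itself induced by interferon. C57BL/6 mice carry a defective Mx1 gene, so its RNA does not give a working protein.

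The promoters of 33 of the 44 genes were listed in the RefSeq promoter table (build GRCm38.p6, the assembly of mm10). A response element core, GAAANNGAAA or its reverse complement TTTCNNTTTC, lay within 250 bases before the start of 16 of the 33 (48.5%), against 2.98% of all 32851 promoters. The gamma-activated sequence, TTCNNNGAA, which reads the same on both strands, lay in 8 of the 33 (24.2%), against 7.02% of all promoters. Overlapping matches were counted together as 1 promoter with the motif. A gene with several listed starts was counted if any of them held the motif, whereas the share of all promoters counts each start. The sequences below belong to the first listed start that holds the core. The core was held by 6 of the 7 immunity GTPases listed and by 10 of the 26 other genes. Of the genes lower in Idh2R172K than in WT (below), 2 of the 5 in the table held it, of those higher in Idh2R172K 2 of 3, and of those higher in Tet2-/- than in WT 5 of 9. A match describes letters in this window and shows no binding. Dhx58, Zbp1, Usp18, Oas2, Mx1, Mx2, Rtp4, Ifi27l2a, Parp9, Parp14 and Iigp1 were not in the table. The 150 bases before the start are shown for 6 genes that moved differently below although each holds the core, which is in capitals with any overlapping match. They run 5′ to 3′ along the gene's strand.
Isg15 at chr4:156200819-156200968, minus strand: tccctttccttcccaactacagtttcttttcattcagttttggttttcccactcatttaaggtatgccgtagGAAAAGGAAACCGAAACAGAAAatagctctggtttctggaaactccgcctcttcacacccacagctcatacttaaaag
Oas1a at chr5:120907526-120907675, minus strand: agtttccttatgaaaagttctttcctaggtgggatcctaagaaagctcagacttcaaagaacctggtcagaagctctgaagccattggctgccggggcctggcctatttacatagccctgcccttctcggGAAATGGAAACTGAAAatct
Rsad2 at chr12:26456453-26456602, minus strand: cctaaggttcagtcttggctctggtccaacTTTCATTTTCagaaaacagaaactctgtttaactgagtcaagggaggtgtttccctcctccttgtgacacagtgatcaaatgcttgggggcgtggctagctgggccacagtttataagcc
Trim30a at chr7:104465194-104465343, minus strand: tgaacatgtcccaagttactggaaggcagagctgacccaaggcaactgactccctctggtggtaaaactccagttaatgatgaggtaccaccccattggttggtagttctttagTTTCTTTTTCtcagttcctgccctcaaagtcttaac
Gbp2 at chr3:142620513-142620662, plus strand: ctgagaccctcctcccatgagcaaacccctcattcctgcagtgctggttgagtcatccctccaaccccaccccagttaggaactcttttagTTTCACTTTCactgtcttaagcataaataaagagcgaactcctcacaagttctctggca
Gbp3 at chr3:142559894-142560043, plus strand: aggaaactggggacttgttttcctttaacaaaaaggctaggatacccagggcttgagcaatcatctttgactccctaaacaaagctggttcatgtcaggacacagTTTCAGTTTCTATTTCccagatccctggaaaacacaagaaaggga
The match nearest the start began 66 bases before it in Isg15, 14 in Oas1a, 120 in Rsad2, 36 in Trim30a, 59 in Gbp2 and 39 in Gbp3.

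The libraries held 35.1 to 44.9 M assigned reads (median 39.2 M), rebuilt from the deposited TPM, a transcript level corrected for gene length and scaled to the library. Libraries stood apart in a way the genotypes do not give. The gene model Gm23935 took 7.55 to 8.13% of the TPM in the number 4 libraries of WT and the 3 Idh groups, against 11 to 13.5% in their other libraries, and 20.0% in Tet2-/- 2. In WT and in all 3 Idh groups 13 of the 44 genes were highest in number 4, as were 35.1% of all genes tested, and 36 of the 44 were the lowest of their group in Tet2-/- 2, as were 67.5% of all genes tested. The numbers are not described in the labels as batches. Counts are therefore also given without these 5 libraries. Idh2 RNA averaged 937 TPM in Idh2R172K and 529 TPM in WT (limma, adjusted p = 2.4e-05). It was not alone, since 2 of the 3 targeted genes (Idh1, Idh2 and Tet2) were called higher there, as were 8.03% of all genes tested. Tet2 RNA averaged 9.91 TPM in Tet2-/- and 7.5 TPM in WT (adjusted p = 0.295), which is no check of the label because the deleted part is not stated. Kit stood at 97.9 TPM in Tet2-/- 2 and at 334 to 456 TPM in the other Tet2-/- libraries.

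All 44 genes had a mean of at least 1 TPM over the 20 libraries and so entered the test, limma on log2(TPM + 1) across 14176 genes with Benjamini-Hochberg adjustment over all of them. Genes with an adjusted p under 0.05 are said to have risen or fallen, and the log2 differences understate the change of genes at low TPM. In WT cells the group means ran from 0.785 TPM for Ifit3b to 380 TPM for Lgals3bp, with a median of 31.9 TPM, against 17.6 TPM over all genes tested. Of the 44 genes, 40 had a WT mean of at least 5 TPM and 38 of at least 10 TPM, so most were well measured without any added interferon. The immunity GTPases stood highest as a class, with a median WT mean of 55.3 TPM, led by Ifi47 (249.6 TPM), and the antiviral effectors lowest, with 18.0 TPM. The sensors had a median of 21.4 TPM, the transcription factors 32.6 TPM, Isg15 and Usp18 33.8 TPM and the other genes 50.3 TPM. Within the effectors the range was wide, since Bst2 averaged 224 TPM and both Mx genes were under 2 TPM in 3 of the 4 WT libraries. In bulk RNA a lower level can come from fewer cells of a type or from less RNA per cell, and these cannot be told apart.

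**Figure D1:**
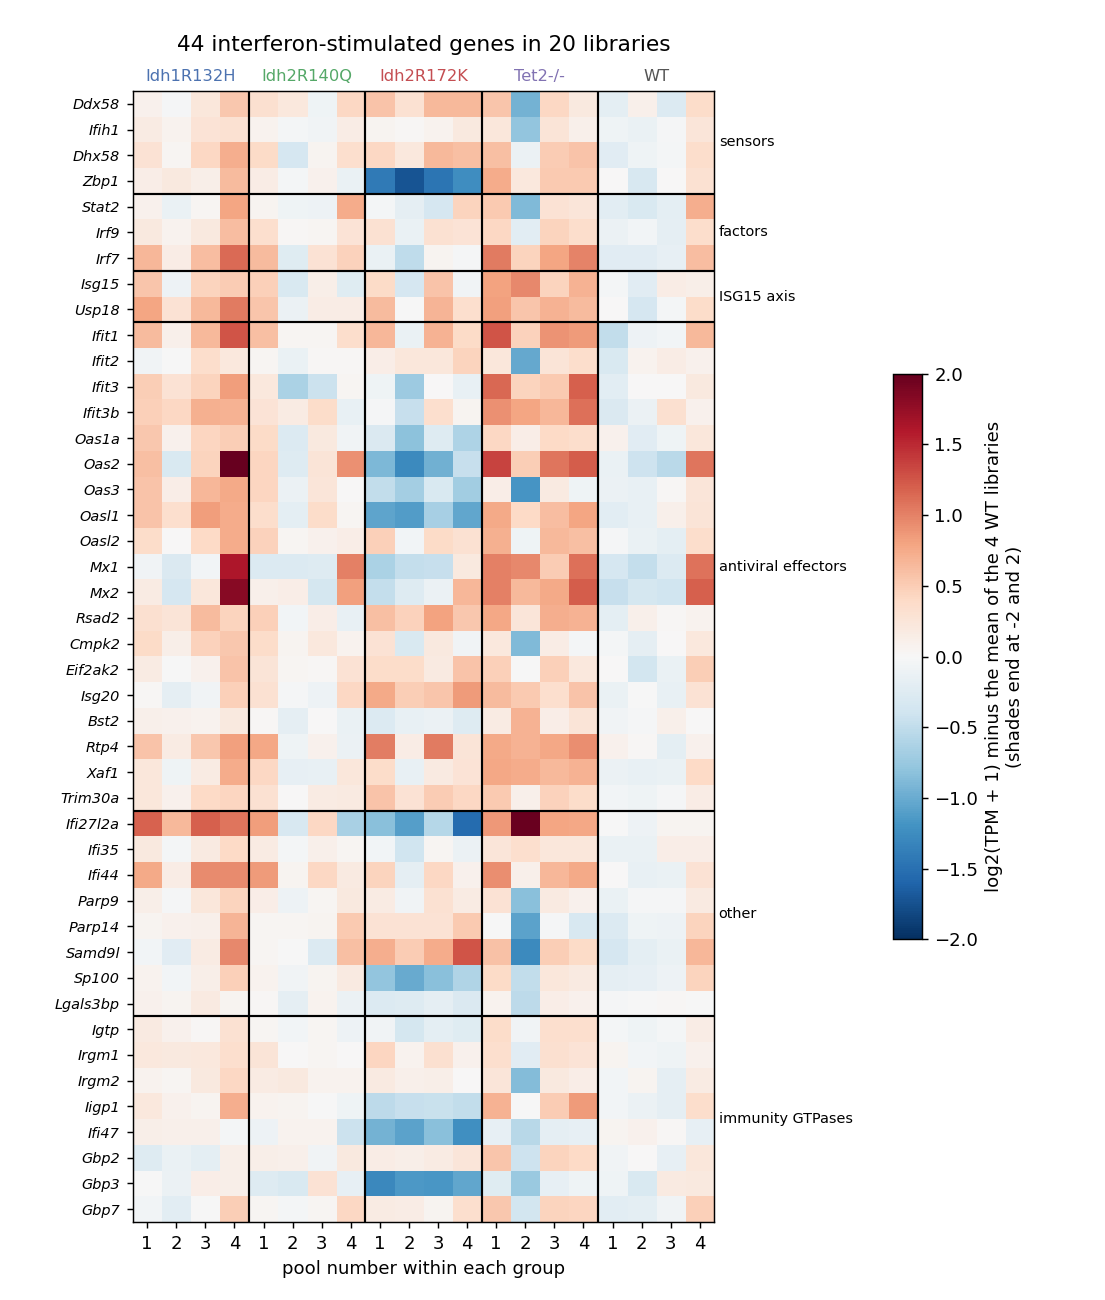
Level of each of the 44 genes (rows, grouped by role) in each of the 20 libraries (columns, by genotype and pool number), as log2(TPM + 1) minus the mean of the 4 WT libraries, with red above and blue below WT. Zbp1, Ifi47, Gbp3, Oasl1 and Sp100 are blue in all 4 Idh2R172K libraries, and 36 of the 44 rows are lowest in Tet2-/- 2 within its group.

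Idh2R172K cells, which carry the mitochondrial enzyme with a changed active-site arginine, were compared with WT. In them 7 of the 44 genes fell (Zbp1, Ifi47, Gbp3, Oasl1, Sp100, Ifi27l2a and Oas1a) and 3 rose (Isg20, Rsad2 and Trim30a). That is 22.7% of the 44, against 15.4% of all genes tested (8.03% higher, 7.33% lower). The median log2 difference of the 44 was 0.09, against 0.11 over all genes tested. Of the 44, 24 lay above 0, as did 63.1% of all genes. All 4 Idh2R172K libraries lay below all 4 WT libraries in 11 genes and above them in 4, where 9.83% and 13% of all genes did so. Under quantile scaling 10 genes fell and 2 rose, with 18.8% of all genes called.

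Among the sensors, Zbp1, which binds Z-form nucleic acid and can start inflammatory cell death (ENSMUSG00000027514, mm10 chr2:173206612-173218923, minus strand), had the largest fall. It had 1.69, 1.19, 1.63 and 2.04 TPM in Idh2R172K, against 6.28, 4.78, 6.23 and 7.9 TPM in WT. The highest Idh2R172K library lay below the lowest WT library. The log2 difference was -1.46 ± 0.16 (SE, limma, adjusted p = 2.71e-06). The RNA helicase sensors Ddx58, Ifih1 and Dhx58 did not pass, with log2 differences of 0.54, 0.08 and 0.47. None of the transcription factors passed either. Irf7, the factor that amplifies type I interferon production, had 28.7, 21.8, 32.6 and 30.9 TPM in Idh2R172K, against 26.7, 26.6, 28.1 and 48.9 TPM in WT. Stat2 had 29.5, 26.8, 23.9 and 41.7 TPM in Idh2R172K, against 26.1, 24.5, 26.3 and 50.9 TPM in WT. Irf9 had 70.1, 51.8, 70.2 and 68.8 TPM in Idh2R172K, against 52.1, 54.6, 50.2 and 72.7 TPM in WT. In each of the 3 the genotypes overlapped.

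Isg15, a ubiquitin-like protein that is joined to other proteins, had 46.4, 27.8, 52.9 and 33.8 TPM in Idh2R172K, against 34.4, 30.1, 39.4 and 38.5 TPM in WT. Its protease Usp18, which also damps the interferon receptor, had 49.4, 31.4, 51.1 and 39.9 TPM in Idh2R172K, against 31.8, 24.8, 30.5 and 41.1 TPM in WT. In both genes Idh2R172K 1 and 3 lay above all WT libraries and Idh2R172K 2 and 4 did not, and neither gene passed (adjusted p = 0.708 and 0.152).

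Of the 19 antiviral effectors 3 rose and 2 fell in Idh2R172K. Isg20, an exonuclease that degrades RNA (ENSMUSG00000039236, mm10 chr7:78913424-78920396, plus strand), had 51, 42.4, 44 and 54.2 TPM in Idh2R172K, against 26.9, 29.5, 26.8 and 36.6 TPM in WT. Rsad2 (viperin), which makes a chain-terminating nucleotide, had 19.4, 17.7, 22.7 and 18.7 TPM in Idh2R172K, against 10.8, 13.6, 12.7 and 13.2 TPM in WT. Trim30a, a member of the tripartite-motif family that in mouse damps Toll-like receptor signalling, had 75.7, 61.6, 72.1 and 67.2 TPM in Idh2R172K, against 48.8, 47.7, 49.5 and 56.2 TPM in WT. All 4 Idh2R172K libraries lay above all WT libraries in each of these. The log2 differences were 0.66 ± 0.15 for Isg20, 0.60 ± 0.15 for Rsad2 and 0.44 ± 0.11 for Trim30a (SE, adjusted p = 0.0051, 0.00815 and 0.00746). Rsad2 no longer passed under quantile scaling (log2 difference 0.45, adjusted p = 0.0941). Close relatives of Trim30a lie beside it, and the counting could split reads among them.

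The oligoadenylate synthetases, which make the messenger that activates RNase L, include the other genes that fell. Oasl1 (ENSMUSG00000041827, mm10 chr5:114923240-114937915, plus strand), a relative without that activity which in mouse represses translation of Irf7, had 7.1, 6.73, 9.56 and 7.13 TPM in Idh2R172K, against 13.5, 14.2, 16.9 and 18.9 TPM in WT. Its highest Idh2R172K library lay below its lowest WT library, and the log2 difference was -0.97 ± 0.16 (adjusted p = 0.000235). Oas1a had 41, 28.1, 41.9 and 32.6 TPM in Idh2R172K, against 53.6, 42.9, 47.5 and 59 TPM in WT. Its log2 difference was -0.50 ± 0.16 (adjusted p = 0.0373), without overlap but with a small gap. Oas1a lost its call when any of Idh2R172K 2, Idh2R172K 4, WT 1, WT 3 or WT 4 was left out, with an adjusted p of up to 0.136. Oas3 had 12.5, 10.8, 14.2 and 10.7 TPM in Idh2R172K, against 16.4, 16.1, 18.1 and 21.3 TPM in WT. Oas2 had 2.5, 1.68, 2.36 and 3.71 TPM in Idh2R172K, against 4.96, 3.88, 3.5 and 12.7 TPM in WT. Oas3 did not overlap and Oas2 did by 1 library, Idh2R172K 4, and neither passed (adjusted p = 0.133 and 0.162). Oasl2, the enzymatically active neighbour of Oasl1, had a log2 difference of 0.28 and did not pass. The Oas genes are a family of near copies, so reads could be shared among them.

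Other effectors gave no call in Idh2R172K. Bst2 (tetherin), which holds budding viruses at the cell surface, had 185, 202, 207 and 186 TPM in Idh2R172K, against 214, 219, 239 and 224 TPM in WT. Rtp4 had 194, 105, 196 and 113 TPM in Idh2R172K, against 101, 95.9, 82.6 and 101 TPM in WT. Ifit1, which binds viral RNA ends, had 16.7, 9.12, 17 and 13.6 TPM in Idh2R172K, against 6.9, 9.42, 9.66 and 16.4 TPM in WT. Bst2 lay below WT and Rtp4 above it in every library, but by margins that did not pass (adjusted p = 0.193 and 0.0573). Ifit3 had 3.42, 1.83, 3.76 and 3.27 TPM in Idh2R172K, against 3.08, 3.71, 3.73 and 4.4 TPM in WT. Ifit3b, its near-identical copy, had 0.729, 0.287, 1.23 and 0.838 TPM in Idh2R172K, against 0.448, 0.627, 1.2 and 0.869 TPM in WT. Both overlapped, and reads of this pair may be split by the counting. Xaf1, a partner of an inhibitor of apoptosis, had 14.5, 9.89, 12.6 and 13.5 TPM in Idh2R172K, against 10.1, 9.85, 9.95 and 14.9 TPM in WT. Mx1 had 0.699, 0.90, 0.922 and 2.02 TPM in Idh2R172K, against 1.09, 0.898, 1.17 and 4.56 TPM in WT. In Mx1 the number 4 library was the highest of both genotypes by a wide margin. The remaining effectors (Ifit2, Oasl2, Mx2, Cmpk2 and Eif2ak2) had log2 differences between -0.05 and 0.37.

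In the mixed class Sp100 and Ifi27l2a fell in Idh2R172K. Sp100, a scaffold of nuclear bodies (ENSMUSG00000026222, mm10 chr1:85649988-85709998, plus strand), had 29.1, 24.8, 27.8 and 33.2 TPM in Idh2R172K, against 44.7, 45.3, 47.1 and 69.2 TPM in WT. Ifi27l2a, a small membrane protein with a close paralog beside it, had 33.4, 27.7, 40.4 and 20.3 TPM in Idh2R172K, against 60.2, 56.1, 63 and 63 TPM in WT. All Idh2R172K libraries were below all WT libraries in both. The log2 differences were -0.81 ± 0.18 for Sp100 and -1.01 ± 0.30 for Ifi27l2a (adjusted p = 0.00359 and 0.0274). Ifi27l2a lost its call when any of Idh2R172K 2, Idh2R172K 4, WT 1, WT 3 or WT 4 was left out, with an adjusted p of up to 0.0994. Lgals3bp, a secreted glycoprotein, had 315, 319, 335 and 311 TPM in Idh2R172K, against 373, 379.6, 386 and 379.7 TPM in WT. Ifi35 had 53.4, 41.7, 56.9 and 51.1 TPM in Idh2R172K, against 50.5, 50.6, 60.5 and 60.7 TPM in WT. Parp14, an ADP-ribosyltransferase, had 24.5, 24.6, 24.4 and 29 TPM in Idh2R172K, against 16.3, 18.6, 18.5 and 27.5 TPM in WT. Of these 3 only Lgals3bp was free of overlap, and its difference of -0.25 did not pass (adjusted p = 0.131). Ifi44, Parp9 and Samd9l had log2 differences of 0.19, 0.14 and 0.81 without passing.

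The immunity GTPases did not move as a block in Idh2R172K, where 2 of 8 fell and none rose. Ifi47 (also Irg47, ENSMUSG00000078920, mm10 chr11:49076587-49096974, plus strand) had 129, 118, 139 and 106 TPM in Idh2R172K, against 259, 263, 253 and 223 TPM in WT. Gbp3 (ENSMUSG00000028268, mm10 chr3:142560026-142573209, plus strand) had 23.7, 26.3, 25.8 and 28.1 TPM in Idh2R172K, against 55.7, 47.9, 67.2 and 68.1 TPM in WT. The highest Idh2R172K library of each lay far below the lowest WT library. The log2 differences were -1.02 ± 0.12 for Ifi47 and -1.16 ± 0.15 for Gbp3 (adjusted p = 4.88e-06 and 2.46e-05). Iigp1 had 16.3, 17.1, 17.4 and 16.7 TPM in Idh2R172K, against 22.9, 22.1, 20.9 and 30.9 TPM in WT. Igtp had 75.1, 61, 68.5 and 66.1 TPM in Idh2R172K, against 76.6, 74.3, 76.5 and 87.1 TPM in WT. Iigp1 did not overlap, Igtp did, and neither passed (adjusted p = 0.0663 and 0.165). Irgm1 had 90.1, 70.1, 83.9 and 71.2 TPM in Idh2R172K, against 69.6, 64.7, 63.1 and 70.7 TPM in WT. Gbp2 had 52.6, 51.5, 52.8 and 56.4 TPM in Idh2R172K, against 44.9, 47.7, 42 and 55.4 TPM in WT. Both of these overlapped, with log2 differences of 0.22 and 0.17, and Irgm2 and Gbp7 were at 0.10 and 0.18. The median over all genes tested was 0.11, and none of these passed. Gene models of Igtp and Irgm2 overlap in the annotation, and the strand setting of the counting is not given in the sources used here.

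Genes that fell lie close to relatives that did not pass. These 4 pairs were picked after their values were seen, so the ratios are a description without a test. On chromosome 3, Gbp3 starts at 142560026 and Gbp7, 9.88 kb away, at 142530342, while Gbp2 lies 47.4 kb on the other side. The log2 ratio of Gbp3 to Gbp2 was -1.01 ± 0.08 (SD, n = 4) in Idh2R172K and 0.32 ± 0.27 in WT. The ratio of Gbp3 to Gbp7 was -1.10 ± 0.10 in Idh2R172K and 0.24 ± 0.23 in WT. On chromosome 5, Oasl1 and Oasl2 are 11 kb apart, and their log2 ratio was -2.20 ± 0.23 in Idh2R172K and -0.95 ± 0.20 in WT. On chromosome 11, Ifi47 and Irgm1 are 205 kb apart, with a ratio of 0.64 ± 0.11 in Idh2R172K and 1.88 ± 0.17 in WT. In all 4 pairs the Idh2R172K ratios lay below every WT ratio.

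**Figure D2:**
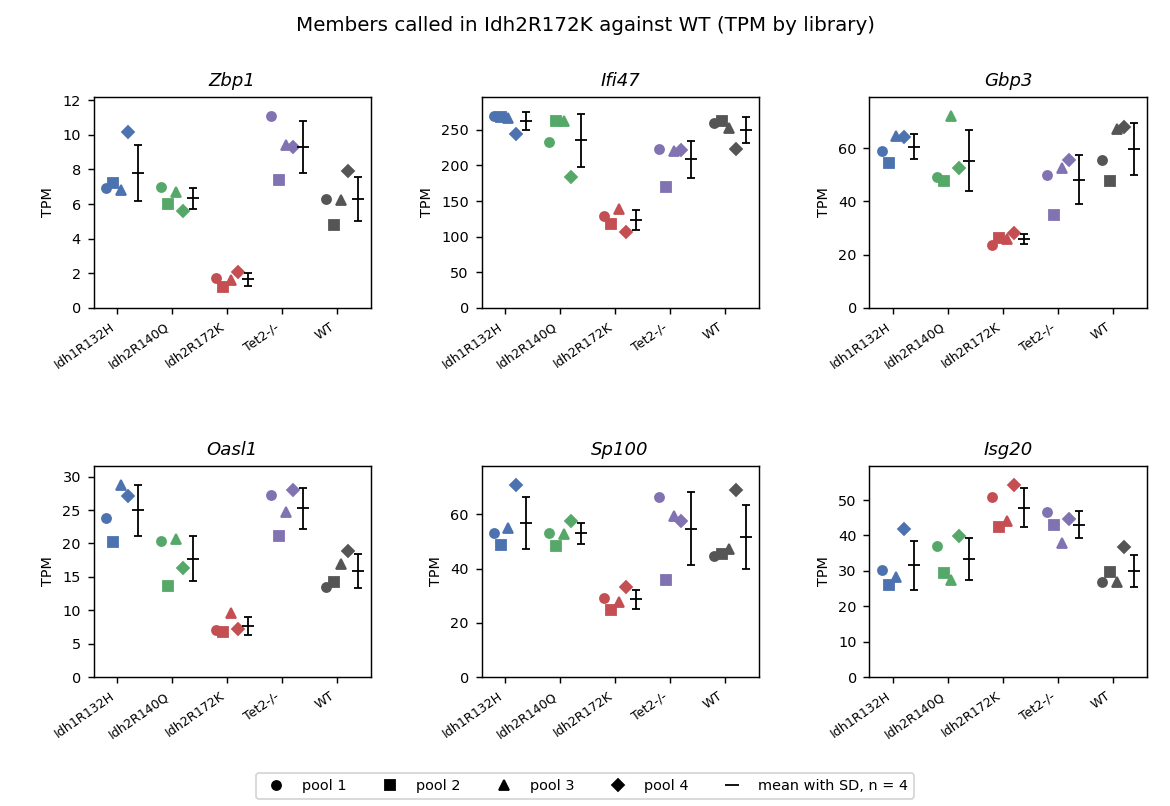
Level in TPM of Zbp1, Ifi47, Gbp3, Oasl1, Sp100 and Isg20 in each library, by genotype with WT last, with a symbol for each pool number and a black mark for the mean with its SD (n = 4). The Idh2R172K points lie under all other points in the first 5 panels (Gbp3 at 23.7 to 28.1 TPM, against 47.9 to 68.1 TPM in WT) and over all WT points in the last.

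Of the 10 calls between Idh2R172K and WT, 7 (Zbp1, Ifi47, Gbp3, Oasl1, Sp100, Isg20 and Trim30a) passed in all 32 alternative fits. The count itself rose to 18 genes without Tet2-/- 2 (6 higher, 12 lower), when 23.7% of all genes passed. Without that library and the 4 number 4 libraries it was 22 genes (13 higher, 9 lower), with 32.7% of all genes.

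Tet2-/- cells, labelled null for a dioxygenase that oxidises 5-methylcytosine, were compared with WT. In them 12 of the 44 genes rose (Irf7, Isg15, Usp18, Ifit3, Ifit3b, Oasl1, Rsad2, Isg20, Rtp4, Xaf1, Trim30a and Ifi27l2a) and none fell by limma. That is 27.3%, against 7.05% of all genes tested (5.02% higher, 2.02% lower). An unadjusted p under 0.05 was found for 24 of the 44 and for 3765 of the 14176 genes tested. The median log2 difference was 0.32, against 0.02 over all genes tested. Of the 44, 34 lay above 0, as did 52.8% of all genes. All 4 Tet2-/- libraries lay above all WT libraries in 12 genes, where 9.11% of all genes did so, and below them in none, where 4.51% did.

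Among the transcription factors Irf7 rose, with 65.8, 43.2, 55 and 63.8 TPM in Tet2-/-, against 26.7, 26.6, 28.1 and 48.9 TPM in WT, and a log2 difference of 0.82 ± 0.23 (adjusted p = 0.0421). Only Tet2-/- 2 and WT 4 overlapped. Stat2 had 44.1, 16, 37.5 and 36.1 TPM in Tet2-/-, against 26.1, 24.5, 26.3 and 50.9 TPM in WT. Irf9 had 75.6, 48.8, 77.4 and 72.6 TPM in Tet2-/-, against 52.1, 54.6, 50.2 and 72.7 TPM in WT. Both were lowest in Tet2-/- 2 and highest for WT in number 4, and neither passed. Isg15 and Usp18, the modifier and its protease, both rose. Isg15 had 62.4, 70.1, 48.6 and 57.7 TPM in Tet2-/-, against 34.4, 30.1, 39.4 and 38.5 TPM in WT. Usp18 had 56.5, 46.8, 51.7 and 49.6 TPM in Tet2-/-, against 31.8, 24.8, 30.5 and 41.1 TPM in WT. No Tet2-/- library reached down to WT in either gene. The log2 differences were 0.73 ± 0.21 and 0.68 ± 0.19 (adjusted p = 0.0423 and 0.0362).

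Of the 19 antiviral effectors 8 rose in Tet2-/-. Ifit3 (ENSMUSG00000074896, mm10 chr19:34583531-34588731, plus strand) had 9.48, 5.38, 5.79 and 9.74 TPM in Tet2-/-, against 3.08, 3.71, 3.73 and 4.4 TPM in WT. Ifit3b had 2.32, 2.04, 1.8 and 2.78 TPM in Tet2-/-, against 0.448, 0.627, 1.2 and 0.869 TPM in WT. Every Tet2-/- library exceeded every WT library, by log2 differences of 0.83 ± 0.22 and 0.87 ± 0.18 (adjusted p = 0.0335 and 0.0116). Ifit1 had 25.6, 14.3, 19.6 and 19.1 TPM in Tet2-/-, against 6.9, 9.42, 9.66 and 16.4 TPM in WT. It overlapped only through Tet2-/- 2 and WT 4 and did not pass (adjusted p = 0.0539).

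Rtp4, whose product was named as a transporter of taste and odorant receptors and acts against viruses (ENSMUSG00000033355, mm10 chr16:23520291-23614222, plus strand), had 162, 154, 162 and 182 TPM in Tet2-/-, against 101, 95.9, 82.6 and 101 TPM in WT. Xaf1 had 19.5, 19.1, 17.8 and 18.6 TPM in Tet2-/-, against 10.1, 9.85, 9.95 and 14.9 TPM in WT. The Tet2-/- values lay close together in both genes, and the log2 differences were 0.79 ± 0.21 and 0.71 ± 0.18 (adjusted p = 0.0337 and 0.026). Oasl1, which fell in Idh2R172K, had 27.3, 21.2, 24.7 and 27.9 TPM in Tet2-/-, against 13.5, 14.2, 16.9 and 18.9 TPM in WT, with no overlap. Its log2 difference was 0.64 ± 0.16 (adjusted p = 0.0234).

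Isg20, Rsad2 and Trim30a, which rose in Idh2R172K, also rose in Tet2-/-, and the 2 comparisons share the WT libraries. Isg20 had 46.7, 43, 37.9 and 44.7 TPM in Tet2-/-, against 26.9, 29.5, 26.8 and 36.6 TPM in WT. Rsad2 had 22, 15, 21.4 and 20.8 TPM in Tet2-/-, against 10.8, 13.6, 12.7 and 13.2 TPM in WT. Trim30a had 72.7, 54.4, 69.9 and 65.5 TPM in Tet2-/-, against 48.8, 47.7, 49.5 and 56.2 TPM in WT. Only Trim30a overlapped, through Tet2-/- 2 and WT 4. The log2 differences were 0.52, 0.61 and 0.36 (SE 0.15, 0.15 and 0.11, adjusted p = 0.0466, 0.0229 and 0.0466).

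The other effectors did not pass in Tet2-/-. Bst2 had 251, 362, 245 and 268 TPM in Tet2-/-, against 214, 219, 239 and 224 TPM in WT. Oas1a had 67.4, 55.3, 66.8 and 64.3 TPM in Tet2-/-, against 53.6, 42.9, 47.5 and 59 TPM in WT. Oas2 had 15.7, 8.14, 12.7 and 14 TPM in Tet2-/-, against 4.96, 3.88, 3.5 and 12.7 TPM in WT. Bst2 was free of overlap, with its highest value in Tet2-/- 2, and Oas1a and Oas2 overlapped. Oas3 had 19.6, 7.31, 20.3 and 16.8 TPM in Tet2-/-, against 16.4, 16.1, 18.1 and 21.3 TPM in WT. Mx1 had 4.31, 4.12, 2.75 and 4.66 TPM in Tet2-/-, against 1.09, 0.898, 1.17 and 4.56 TPM in WT. Mx1 was high in all 4 Tet2-/- libraries and in 1 WT library, number 4. Their log2 differences were 0.31 for Bst2, 0.32 for Oas1a, 1.03 for Oas2, -0.24 for Oas3 and 0.90 for Mx1 (adjusted p between 0.0593 and 0.533). The other effectors (Ifit2, Oasl2, Mx2, Cmpk2 and Eif2ak2) ranged from -0.14 to 0.91.

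No sensor passed in Tet2-/-. Zbp1 had 11.1, 7.39, 9.42 and 9.32 TPM in Tet2-/-, against 6.28, 4.78, 6.23 and 7.9 TPM in WT (log2 difference 0.50, adjusted p = 0.0591). It overlapped only through Tet2-/- 2 and WT 4, and Ddx58, Ifih1 and Dhx58 were at 0.05, -0.05 and 0.39. In the mixed class Ifi27l2a alone rose. It had 112, 240.3, 106 and 105 TPM in Tet2-/-, against 60.2, 56.1, 63 and 63 TPM in WT, with a log2 difference of 1.11 ± 0.30 (adjusted p = 0.0345). Tet2-/- 2, low for most genes, was the highest here. Sp100 had 66.4, 35.6, 59.6 and 57.6 TPM in Tet2-/-, against 44.7, 45.3, 47.1 and 69.2 TPM in WT. Ifi35 had 66, 70.3, 64.9 and 64.9 TPM in Tet2-/-, against 50.5, 50.6, 60.5 and 60.7 TPM in WT. Ifi35 was free of overlap and Sp100 was not, and neither passed. Parp14 had 19.7, 8.9, 19.4 and 15.7 TPM in Tet2-/-, against 16.3, 18.6, 18.5 and 27.5 TPM in WT. Lgals3bp had 399, 264, 415 and 402 TPM in Tet2-/-, against 373, 379.6, 386 and 379.7 TPM in WT. In both Tet2-/- 2 was far below the rest, and Ifi44, Parp9 and Samd9l were at 0.62, -0.07 and 0.05.

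None of the 8 immunity GTPases passed in Tet2-/-. An unadjusted limma p under 0.05 was found for 3 of the 8 and for 3765 of the 14176 genes tested. Iigp1 had 39.2, 23.7, 34.5 and 44.2 TPM in Tet2-/-, against 22.9, 22.1, 20.9 and 30.9 TPM in WT. Igtp had 101, 74.3, 99.1 and 99 TPM in Tet2-/-, against 76.6, 74.3, 76.5 and 87.1 TPM in WT. Gbp2 had 69.6, 35.2, 64.5 and 62.4 TPM in Tet2-/-, against 44.9, 47.7, 42 and 55.4 TPM in WT. In these, Tet2-/- 1, 3 and 4 lay above all WT libraries and Tet2-/- 2 within or below them. Irgm1 had 84.8, 56.8, 83.4 and 80.7 TPM in Tet2-/-, against 69.6, 64.7, 63.1 and 70.7 TPM in WT. Ifi47 had 223, 170.1, 219.9 and 221 TPM in Tet2-/-, against 259, 263, 253 and 223 TPM in WT. Gbp3 had 49.9, 34.9, 52.6 and 55.5 TPM in Tet2-/-, against 55.7, 47.9, 67.2 and 68.1 TPM in WT. Ifi47 and Gbp3 leaned below WT, at -0.26 and -0.31, and the class ranged up to 0.51.

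The adjusted p-values of the 12 genes that rose in Tet2-/- lay between 0.0116 and 0.0466. Each of their log2 differences stayed above 0 in every alternative fit that tested the gene, down to 0.31 for Trim30a. The number of calls changed when single libraries were left out. The count was 1 gene without Tet2-/- 4 (2.48% of all genes), WT 1 (3.56%) or WT 3 (1.88%), 2 genes without WT 2 (4.90%), 7 without Tet2-/- 1 (9.81%) and 17 without Tet2-/- 2 (7.04%). It was 8 without Idh1R132H 1 or Idh1R132H 3, which enter through the shared estimate of spread. Only Ifit3b passed in all 20 fits with 1 library left out, and it was lost in the fit of these 2 groups alone, which called 1 gene (0.317% of all genes). Without Tet2-/- 2 and the number 4 libraries, 33 genes rose and Ifi47 fell, with 31.8% of all genes called and a median of 0.60, against 0.16 over all genes.

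**Figure D3:**
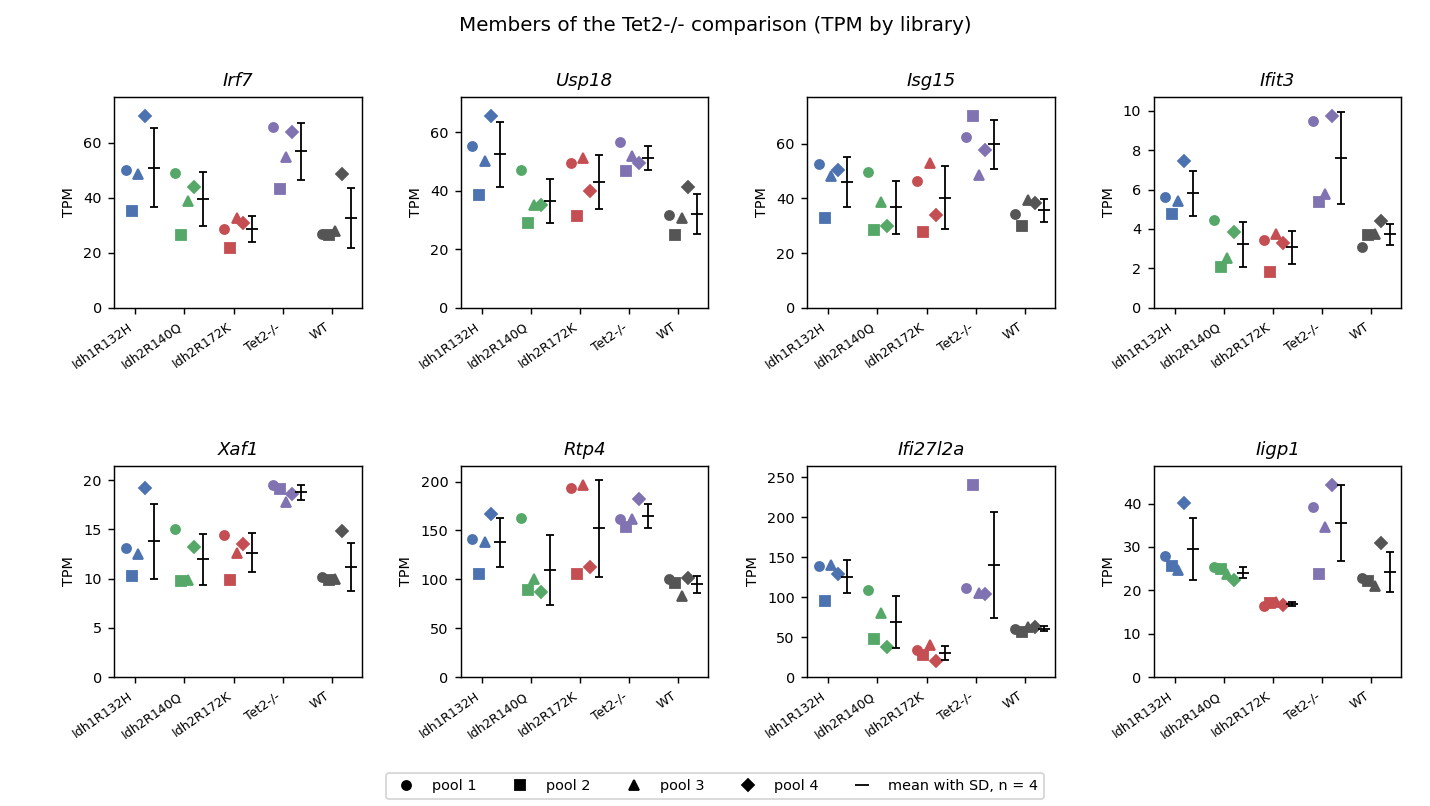
Level in TPM of Irf7, Usp18, Isg15, Ifit3, Xaf1, Rtp4, Ifi27l2a and Iigp1 in each library, by genotype with WT last, with a symbol for each pool number and a black mark for the mean with its SD (n = 4). The Tet2-/- points of Xaf1 lie at 17.8 to 19.5 TPM, against 9.85 to 14.9 TPM in WT, while Iigp1 overlaps WT through Tet2-/- 2.

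**Figure D4:**
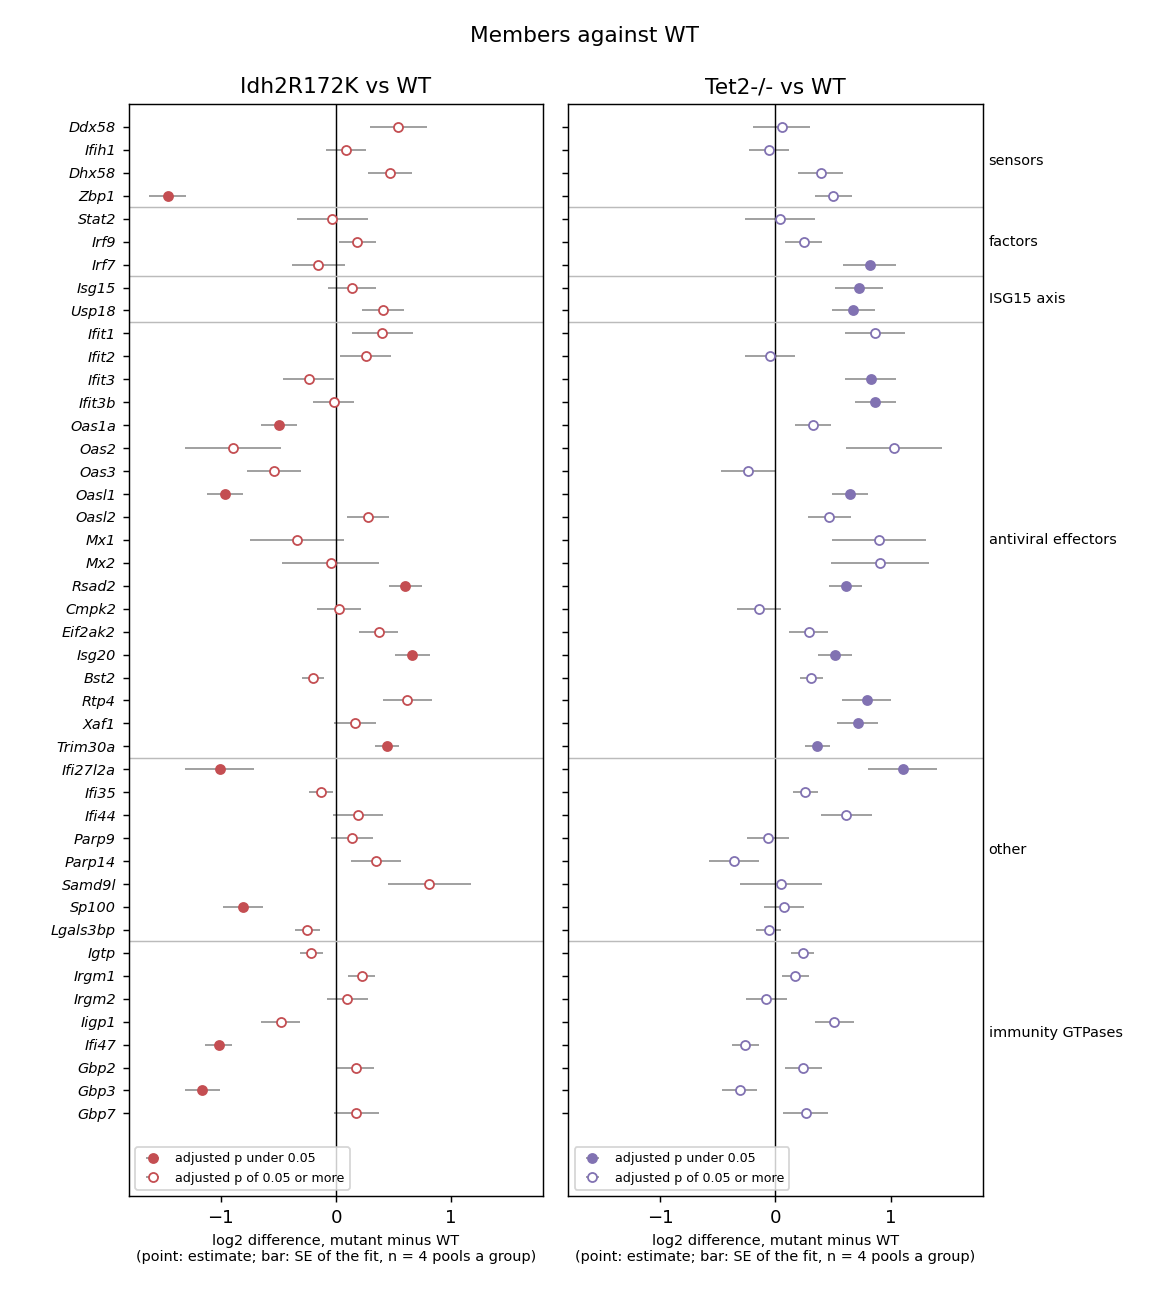
Log2 difference of each of the 44 genes in Idh2R172K and in Tet2-/-, each against WT, on log2(TPM + 1) with bars for 1 SE, filled where the adjusted p is under 0.05. The filled points lie on both sides of 0 for Idh2R172K (3 higher, 7 lower) and on the higher side for Tet2-/- (12 of 12).

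Tet2-/- and Idh2R172K were set against each other directly. The difference itself uses no WT library, but WT libraries enter its error through the shared estimate of spread. The Isg15 call below was lost without WT 1. In Tet2-/- 18 of the 44 genes were higher and 1, Parp14, lower, which is 43.2% against 26.8% of all genes tested (11.9% higher, 14.9% lower). The median log2 difference was 0.28, against -0.06 over all genes, and all 4 libraries lay above in 16 genes and below in 1, where 11.7% and 13.8% of all genes did so. The largest was Ifi27l2a at 2.12 ± 0.30 (SE, adjusted p = 6.52e-05), followed by Zbp1 at 1.96 ± 0.16 (adjusted p = 7.07e-08), Oas2 at 1.93 ± 0.42 (adjusted p = 0.00306) and Oasl1 at 1.61 ± 0.16 (adjusted p = 8.18e-07). Among the factors Irf7 was higher by 0.97, and of the immunity GTPases 4 of 8 were higher, namely Iigp1 by 0.99, Gbp3 by 0.85, Ifi47 by 0.75 and Igtp by 0.45. Effectors gave 8 of 19, which were Ifit3, Ifit3b, Oas1a, Oas2, Oasl1, Bst2, Mx1 and Xaf1. Sp100, Ifi35 and Isg15 completed the set, at 0.88, 0.39 and 0.59. Parp14 was lower by a log2 difference of -0.71 (adjusted p = 0.0231). Isg20, Rsad2 and Trim30a, which rose in both genotypes, had differences of -0.15, 0.01 and -0.08 and did not pass. Without Tet2-/- 2 and the number 4 libraries 23 genes were higher and 1 lower, with 35.1% of all genes called. Of the 19 calls 13 held in every alternative fit that tested them (32, or 31 for Ifit3 and Ifit3b). Igtp was lost only in the fit of the 2 groups alone, while Mx1, Ifi35, Parp14, Isg15 and Xaf1 were lost when 1 library was left out, which for all 5 included Idh2R172K 2 or Tet2-/- 2, with an adjusted p of up to 0.147.

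Idh1R132H, the mutant of the cytosolic enzyme, gave no call against WT by limma. An unadjusted p under 0.05 was found for 13 of the 44 genes and for 229 of the 14176 genes tested. Of all genes tested 0.00705% were called. The genes leaned one way without passing, since 43 of 44 lay above 0, as did 65% of all genes tested. Their median was 0.27, against 0.04 over all genes. All 4 Idh1R132H libraries lay above all WT libraries in 8 genes (0.973% of all genes did so) and below them in none (0.734%). The 8 were Ifi27l2a, Rtp4, Ifit3, Ifit3b, Oasl1, Rsad2, Lgals3bp and Irgm1. Without the 5 libraries that stood apart there was again no call, and the median was 0.25. Idh2R140Q gave no call by limma either, and 0.0% of all genes were called. None of the 44 had an unadjusted p under 0.05, which 407 of the 14176 genes tested had. Its median was 0.10, against 0.08 over all genes, and no gene was free of overlap with WT (1.58% of all genes lay above and 0.423% below). In Idh2R140Q 37 of the 44 genes lay above 0, as did 71.6% of all genes. The share of the 44 depended on scaling, with 27 under median-of-ratios and 24 under quantile scaling.

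Values of these genotypes follow in the order of roles, for the genes already given in the others. Zbp1 had 6.93, 7.23, 6.83 and 10.2 TPM in Idh1R132H and 6.97, 6.03, 6.69 and 5.6 TPM in Idh2R140Q. Irf7 had 50.2, 35.1, 48.8 and 69.9 TPM in Idh1R132H and 49.2, 26.5, 38.9 and 43.8 TPM in Idh2R140Q. Stat2 had 32.4, 27.5, 31.5 and 53.3 TPM in Idh1R132H and 31.5, 28.5, 28.4 and 51.6 TPM in Idh2R140Q. Both factors were highest in Idh1R132H 4, and in Stat2 the number 4 library stood alone in each genotype. Irf9 had 65.1, 59.6, 64.9 and 87.5 TPM in Idh1R132H and 71.8, 57.9, 58.6 and 68.6 TPM in Idh2R140Q. Isg15 had 52.7, 32.7, 48.3 and 50.4 TPM in Idh1R132H and 49.7, 28.5, 38.6 and 29.8 TPM in Idh2R140Q. Usp18 had 55.3, 38.7, 50.1 and 65.6 TPM in Idh1R132H and 46.9, 29.1, 35.2 and 35 TPM in Idh2R140Q. Idh1R132H 2 was the lowest of its group in all 3 of these, within the WT range.

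Among the effectors that lay above WT in Idh1R132H, the Ifit genes were measured at low TPM. Ifit3 had 5.65, 4.74, 5.4 and 7.44 TPM in Idh1R132H and 4.48, 2.04, 2.51 and 3.83 TPM in Idh2R140Q. Ifit3b had 1.45, 1.34, 1.89 and 1.87 TPM in Idh1R132H and 1.12, 0.979, 1.28 and 0.595 TPM in Idh2R140Q. Ifit1 had 16.3, 11, 16.3 and 25.7 TPM in Idh1R132H and 15.9, 10.4, 10.4 and 13.2 TPM in Idh2R140Q. The Idh1R132H libraries exceeded all WT libraries in Ifit3 and Ifit3b but not in Ifit1. Oasl1 had 23.9, 20.2, 28.7 and 27.1 TPM in Idh1R132H and 20.4, 13.6, 20.6 and 16.3 TPM in Idh2R140Q. Rsad2 had 15.9, 15.2, 19.9 and 17.3 TPM in Idh1R132H and 17.8, 12.1, 13.8 and 11.1 TPM in Idh2R140Q. Rtp4 had 141, 106, 138 and 167 TPM in Idh1R132H and 163, 89, 100.1 and 86.9 TPM in Idh2R140Q. In each of these the Idh1R132H values cleared WT and the Idh2R140Q values did not, Rtp4 being high in Idh2R140Q 1 alone.

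The other Oas genes and the remaining effectors overlapped WT in both genotypes. Oas1a had 73.5, 53.4, 68.2 and 71.5 TPM in Idh1R132H and 65.9, 41.6, 57.9 and 47.7 TPM in Idh2R140Q. Oas2 had 8.88, 4.28, 7.88 and 26.3 TPM in Idh1R132H and 7.77, 4.45, 6.77 and 11.3 TPM in Idh2R140Q. Oas3 had 27.1, 19.7, 28.9 and 30.9 TPM in Idh1R132H and 24.4, 16.4, 21.4 and 17.9 TPM in Idh2R140Q. Oas2 was highest in number 4 of both genotypes. Mx1 had 1.51, 1.15, 1.53 and 7.1 TPM in Idh1R132H and 1.19, 1.19, 1.2 and 4.29 TPM in Idh2R140Q. Isg20 had 30.1, 26.1, 28.2 and 41.8 TPM in Idh1R132H and 37, 29.3, 27.5 and 39.9 TPM in Idh2R140Q. Bst2 had 239, 237, 235 and 257 TPM in Idh1R132H and 228, 197, 224 and 204 TPM in Idh2R140Q. Mx1 and Isg20 again peaked in number 4, whereas Bst2 was even across libraries. Xaf1 had 13.1, 10.3, 12.5 and 19.2 TPM in Idh1R132H and 15, 9.77, 9.84 and 13.2 TPM in Idh2R140Q. Trim30a had 59.1, 53.7, 67.1 and 68 TPM in Idh1R132H and 62.3, 50.6, 56.8 and 57.5 TPM in Idh2R140Q. Both were at WT level in at least 1 library of each genotype.

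In the mixed class Ifi27l2a lay above WT in all 4 Idh1R132H libraries and on both sides of WT in Idh2R140Q. It had 139, 95.2, 140.5 and 128 TPM in Idh1R132H and 109, 48.2, 80.8 and 38.2 TPM in Idh2R140Q. Its log2 difference from WT was 1.03 ± 0.30 in Idh1R132H (adjusted p = 1) and 0.07 ± 0.30 in Idh2R140Q. Sp100 had 53.2, 48.7, 55.1 and 70.8 TPM in Idh1R132H and 53.2, 48.4, 52.7 and 57.8 TPM in Idh2R140Q. Sp100 overlapped WT in both genotypes, and so did Ifi35 and Parp14. Ifi35 had 63.2, 53.7, 62.6 and 73.2 TPM in Idh1R132H and 62.1, 53.6, 59.4 and 57.1 TPM in Idh2R140Q. Parp14 had 20.6, 21.1, 21.3 and 32.4 TPM in Idh1R132H and 20.5, 20.5, 20.7 and 28.8 TPM in Idh2R140Q. Lgals3bp had 405, 394, 429.5 and 396 TPM in Idh1R132H and 384, 337, 401 and 349 TPM in Idh2R140Q. Lgals3bp cleared WT in Idh1R132H by a small margin.

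The immunity GTPases of both genotypes lay close to WT, with medians of 0.11 in Idh1R132H and 0.04 in Idh2R140Q. Ifi47 had 269.6, 268, 267 and 244 TPM in Idh1R132H and 232, 262, 262 and 184 TPM in Idh2R140Q. Gbp3 had 58.8, 54.6, 64.7 and 64.4 TPM in Idh1R132H and 49.2, 47.7, 72.2 and 52.4 TPM in Idh2R140Q. All libraries of both genotypes lay above all Idh2R172K libraries in these genes. Gbp2 had 39.5, 43, 40.9 and 51.4 TPM in Idh1R132H and 51.5, 50.9, 44.9 and 54 TPM in Idh2R140Q. Iigp1 had 27.8, 25.5, 24.8 and 40.1 TPM in Idh1R132H and 25.3, 24.9, 23.7 and 22.4 TPM in Idh2R140Q. Igtp had 88.8, 83.7, 79.7 and 97.2 TPM in Idh1R132H and 80.8, 75.9, 80.2 and 73.2 TPM in Idh2R140Q. Iigp1 was highest in Idh1R132H 4, and its other Idh1R132H values overlapped Idh2R140Q. Irgm1 had 78, 76.9, 77.4 and 84.8 TPM in Idh1R132H and 80.3, 67.5, 68.8 and 67.4 TPM in Idh2R140Q, so that it cleared WT in Idh1R132H alone.

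**Figure D5:**
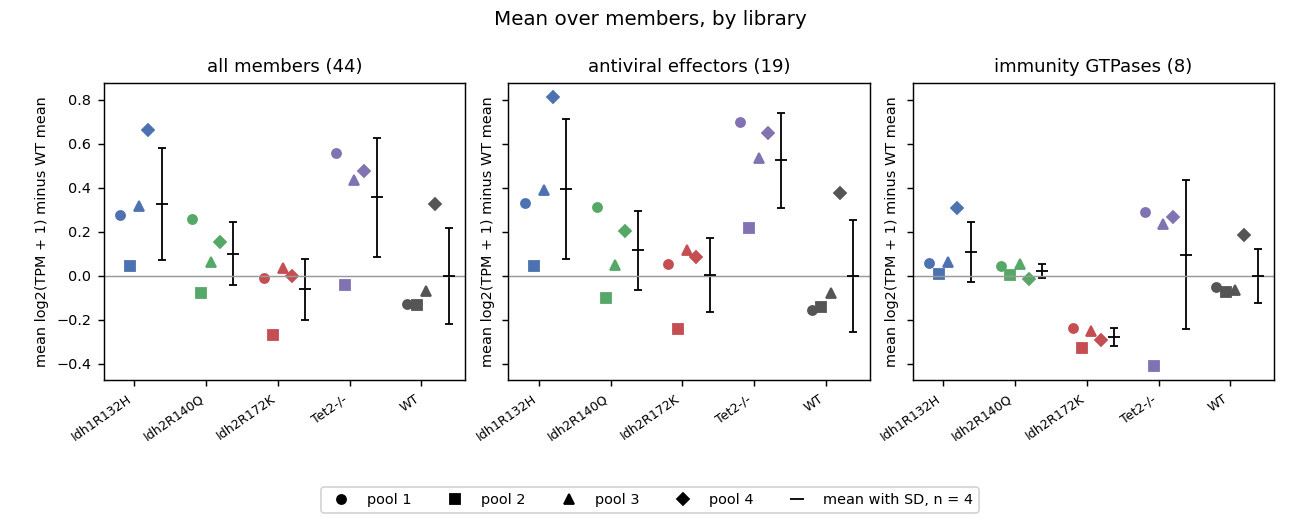
Mean of log2(TPM + 1) minus the WT mean over all 44 genes, over the 19 antiviral effectors and over the 8 immunity GTPases (panels), with 1 point for each library, a symbol for each pool number, a black mark for the mean with its SD (n = 4) and WT last. Over all genes the Idh2R172K libraries lie between -0.27 and 0.04, Tet2-/- between -0.04 and 0.56 and WT between -0.13 and 0.32, and WT 4 and Tet2-/- 2 stand apart from their groups.

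The Idh genotypes were also compared with each other. In Idh2R172K against Idh1R132H 16 of the 44 genes were lower and 1, Isg20, higher, which is 38.6% against 13.5% of all genes (6.21% higher, 7.32% lower), with a median of -0.27 against 0.06. All 4 Idh2R172K libraries lay below all Idh1R132H libraries in 16 genes and above in 2, where 11.4% and 11.7% of all genes did so. The largest were Ifi27l2a at -2.04 ± 0.30 (SE, adjusted p = 8.81e-05), Zbp1 at -1.73 ± 0.16 (adjusted p = 3.38e-07), Oas2 at -1.60 ± 0.42 (adjusted p = 0.0138) and Oasl1 at -1.59 ± 0.16 (adjusted p = 8.94e-07). The 7 effectors that were lower were Ifit3, Ifit3b, Oas1a, Oas2, Oas3, Oasl1 and Bst2, and the 4 GTPases were Igtp, Iigp1, Ifi47 and Gbp3. Irf7, Sp100 and Lgals3bp were lower as well, by log2 differences of -0.79, -0.96 and -0.34. The calls of Irf7, Lgals3bp, Bst2, Ifit3, Ifit3b and Igtp were lost when 1 library was left out (adjusted p up to 0.122), and the other 11 held in all alternatives. The count was 11 genes without Idh1R132H 1 (10.1% of all genes), Idh1R132H 4 (12.4%) or Idh2R172K 2 (10.5%).

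In Idh2R172K against Idh2R140Q, 2 alleles of the same gene, 7 of the 44 genes were lower (Zbp1, Oasl1, Ifi27l2a, Gbp3, Ifi47, Sp100 and Oas1a) and 2 higher (Isg20 and Rsad2). That is 20.5%, against 10.5% of all genes (3.76% higher, 6.74% lower), with a median of -0.03 against 0.03. All 4 Idh2R172K libraries lay below in 9 genes and above in 2, where 9.69% and 7.38% of all genes did so. Zbp1 differed by -1.48 ± 0.16 (SE, adjusted p = 2.66e-06), Oasl1 by -1.11, Gbp3 by -1.05, Ifi47 by -0.92 and Sp100 by -0.87, and these 5 held in all alternatives. With the pool number as a block 14 genes passed (3 higher, 11 lower), with 14.6% of all genes. The count was 5 genes without Idh2R140Q 3 (8.51%) or Idh2R172K 4 (8.85%). The calls of Rsad2, Isg20, Oas1a and Ifi27l2a were lost when 1 library was left out (adjusted p up to 0.128). Under quantile scaling 1 gene was higher and 10 lower, with 14.3% of all genes called. Idh2R140Q against Idh1R132H gave no call by limma, with 0.00705% of all genes called. There 40 of the 44 genes lay below 0, while 64.4% of all genes lay above 0. The median of the 44 was -0.18, against 0.04 over all genes. An unadjusted p under 0.05 was found for 7 of them and for 274 of the 14176 genes tested.

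Tet2-/- was also set against the other Idh genotypes. Against Idh2R140Q 7 of the 44 genes were higher (Ifit3, Ifit3b, Isg15, Xaf1, Rsad2, Bst2 and Ifi27l2a) and none lower, which is 15.9% against 9.54% of all genes (4.05% higher, 5.49% lower). All 4 Tet2-/- libraries lay above all Idh2R140Q libraries in 7 genes and below in 1, where 6.86% and 9.21% of all genes did so. Ifi27l2a differed by 1.04 ± 0.30 and Ifit3 by 1.03 ± 0.22 (SE, adjusted p = 0.0404 and 0.016). No gene was called without Idh2R140Q 3 (1.33% of all genes) or Tet2-/- 4 (1.25%), 1 without Idh2R140Q 2 (3.04%) or Idh2R140Q 4 (2.91%), 3 without Idh1R132H 1 (6.76%) and 4 without Idh1R132H 3 (6.64%). Under other scalings the count rose to 14 to 23 genes, with 16.2 to 21.1% of all genes. Without the 5 libraries that stood apart 23 genes were higher and 1 lower (23.9% of all genes). Against Idh1R132H 1 gene, Oas3, was lower (-0.77 ± 0.23, adjusted p = 0.0376), where 13.5% of all genes were called (6.82% higher, 6.67% lower). That 2.27% of the 44 included no gene that was higher, and the median was 0.08, against 0.00 over all genes. All 4 Tet2-/- libraries lay above all Idh1R132H libraries in none of the 44 and below in 2, where 9.76% and 11.4% of all genes did so. The Oas3 call was lost without Idh1R132H 1, Idh1R132H 3, Idh1R132H 4, Tet2-/- 2 or Tet2-/- 4, with an adjusted p of up to 0.1. The count was 0 genes without Idh1R132H 1, Idh1R132H 3 or Tet2-/- 4 and 2 without Idh1R132H 4 or WT 4. It was 3 without Tet2-/- 1 or Idh2R140Q 4 and 4 without Tet2-/- 3. The share of all genes called in these fits is not set beside the counts, so they say nothing particular of the 44. Under other scalings 6 genes passed there, with 3 higher and 3 lower or 4 higher and 2 lower, and 20.6 to 24.5% of all genes. Without the 5 libraries that stood apart 14 were higher and 1 lower (32.7% of all genes).

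Other genes of the interferon pathway were looked up from a list of receptors, kinases, factors, sensors and inhibitors. Of its 44 genes 33 were measured well enough to be tested. No interferon gene was, since the 9 looked up summed to at most 0.661 TPM in any library, and Ifne, Ifna4, Ifnl2 and Ifnl3 were at 0 in all 20 libraries. In Idh2R172K against WT 1 of the 33 rose and 4 fell, a share close to the 15.4% of all genes called there, so the count says nothing particular of the pathway. Socs3, a feedback inhibitor of JAK kinases, averaged 87.8 ± 24 TPM in Idh2R172K and 22.8 ± 4.12 TPM in WT (SD, n = 4 each, log2 difference 1.87, adjusted p = 7.63e-05). Ifngr2, a subunit of the type II interferon receptor, averaged 16 ± 3.22 TPM in Idh2R172K and 36.3 ± 6.06 TPM in WT (log2 difference -1.14, adjusted p = 9.89e-06). Its partner Ifngr1 averaged 170.3 ± 8.67 TPM in Idh2R172K and 221 ± 20.8 TPM in WT (log2 difference -0.37, adjusted p = 0.0445). Irf8, a factor of the monocyte and dendritic lineages, averaged 46.9 ± 9.93 TPM in Idh2R172K and 118 ± 35.7 TPM in WT (log2 difference -1.29, adjusted p = 0.000108). Tmem173 (STING), which relays signals of cytosolic DNA, averaged 186 ± 13.6 TPM in Idh2R172K and 232 ± 26.1 TPM in WT (log2 difference -0.32, adjusted p = 0.0251).

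Irf1 and the type I receptor subunits Ifnar1 and Ifnar2 passed in none of the 4 genotypes against WT. Ifnar1 averaged 65 ± 13.5 TPM in Idh2R172K, 49.3 ± 17.2 TPM in Tet2-/- and 55.3 ± 14.5 TPM in WT. Irf1 averaged 81.9 ± 18 TPM in Idh2R172K, 111 ± 14.5 TPM in Tet2-/- and 92 ± 17.3 TPM in WT. In Tet2-/-, Idh1R132H and Idh2R140Q none of the 33 pathway genes passed against WT by limma. An unadjusted p under 0.05 was found for 2, 2 and 0 of them, and for 3765, 229 and 407 of the 14176 genes tested. In Tet2-/- against Idh2R172K 6 of the 33 were called, where 26.8% of all genes were, and Ifngr2 (0.84), Irf8 (1.03) and Tmem173 (0.29) were higher and Jak1 (-0.64), Jak2 (-0.89) and Socs3 (-1.45) lower. In Idh2R172K against Idh1R132H 1 of the 33 was higher and 5 lower (13.5% of all genes called), among them Tlr3, an endosomal RNA sensor, by a log2 difference of -0.97. In Idh2R172K against Idh2R140Q 1 was higher (Socs3) and 4 lower (Ifngr2, Irf8, Tmem173 and Ifnar2), where 10.5% of all genes were called, and Ifnar2 differed by -0.32 (limma, adjusted p = 0.0388).

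The sort marker Ly6a differed from WT in Tet2-/- and Idh2R172K. It had 273, 350.2, 271 and 272 TPM in Tet2-/-, against 185, 183, 155 and 149 TPM in WT (log2 difference 0.79, adjusted p = 0.000999). In Idh2R172K it had 115, 144, 141 and 122 TPM (log2 difference -0.36, adjusted p = 0.0317). Neither genotype overlapped WT. Of 10 LSK cell markers tested, Ly6a included, 1 rose in Tet2-/- and 2 fell in Idh2R172K, with a median log2 difference of 0.01 in each. None passed in Idh1R132H or Idh2R140Q against WT. The list summed to 1824 to 2479 TPM in Tet2-/-, 2262 to 2402 TPM in Idh2R172K and 1993 to 2286 TPM in WT. Markers of other cells that could be in the sort were looked up too, and in no list was a marker at 0 in all libraries. For these lists and the LSK list, the share of all genes called against WT was 15.4% in Idh2R172K and 7.05% in Tet2-/-. The lists are short, so counts near these shares say nothing particular of a cell type. Of 9 macrophage markers tested 2 rose in Tet2-/- (C1qb and C1qc), and the list summed to 241 to 261 TPM in Tet2-/-, against 175 to 239 TPM in WT. In Idh2R172K 1 fell (Cd68), and the sum was 116 to 142 TPM. Of 7 genes of antigen-presenting and dendritic cells tested 3 fell in Idh2R172K (H2-Aa, H2-Ab1 and H2-Eb1), and the list summed to 168 to 286 TPM in Idh2R172K, against 381 to 821 TPM in WT. In Tet2-/- 1 rose (Xcr1), and the sum was 690.5 to 1094 TPM. Of 4 plasmacytoid dendritic cell markers Siglech rose and Lair1 fell in Idh2R172K, with sums of 40.5 to 54.5 TPM in Idh2R172K, 79.4 to 138 TPM in Tet2-/- and 55.4 to 92.6 TPM in WT. Of 5 B lineage markers 2 rose (Vpreb1 and Igll1) and Cd79b fell in Idh2R172K, and none passed in Tet2-/-. Of 4 T and NK cell markers Klrd1 rose and Lck and Klrb1c fell in Idh2R172K, and Klrd1 rose in Tet2-/-. Of 7 red cell genes 5 rose and 1 fell in Tet2-/-, with sums of 94.1 to 133 TPM in Tet2-/- and 48.6 to 79.2 TPM in WT, and 1 fell in Idh2R172K. No marker of 8 mature neutrophil genes or of stroma and endothelium (1 tested) passed by limma in either genotype. The part of these cells and of the sort marker in the differences of the 44 genes was not tested.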

How the data were processed

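RNA of 20 LSK libraries was sequenced. The deposited values are TPM per gene, computed by the authors, and sum to 1000000 in each library. The submitters' processing notes name Trim Galore, STAR, featureCounts and mm10; versions, the annotation and the strand setting are not given in the sources used here. Each column was tied to its sample through the mutation and number in its name, and those with a prefix of Idh1 beside 140Q were taken as Idh2R140Q; 0 sample columns were unused. Gene symbols, coordinates and exon lengths came from GENCODE M21 on mm10, which held 45143 of the 46078 IDs. Depth was rebuilt from the step that 1 read adds to a gene's TPM times length, and 90.1 to 91.2% of values of up to 30 reads came out whole within 0.1 read.

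Tests were run in R 4.3.3 with limma 3.58.1 (trended moderated test) on log2(TPM + 1) for the 14176 genes whose average over the libraries reached 1 TPM, with all 5 groups in 1 fit, 10 comparisons and Benjamini-Hochberg adjustment over all genes within each. The code was tested on simulated data. Tables and figures used Python 3.11.15 with pandas 2.3.3, numpy 2.4.6, scipy 1.17.1 and matplotlib 3.10.9. The replicate is a pool of 2 mice. The 44 genes, the pathway and marker lists and the tests were chosen with earlier results of these data known. Values in every library are given for genes called in at least 1 comparison and for Stat2, Irf9, Ifit1, Irgm1 and Gbp2, other genes by range. Numbers were taken to pair 2 groups where the deviations of same-numbered libraries correlated over 0.1 in every pair. This held for Idh1R132H with WT, Idh2R140Q and Idh2R172K and for Idh2R140Q with Idh2R172K (0.147 to 0.538). With WT the lowest was 0.0974 for Idh2R140Q and -0.02 for Idh2R172K, although their number 4 libraries reached 0.451 and 0.404. The main tests used no pairing in any comparison, and the pool number entered as a block only in an alternative fit. In all, 32 alternatives were run, 20 of them leaving out 1 library.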

Additional observations from a re-analysis of the deposited data

Results flagged for a closer look

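In each group of 4 libraries the highest and lowest values of the 44 genes, and of their mean, were checked for a gap to the nearest of the others that passed Dixon's critical value. Of 225 groups 35 had such a library (15.6%). For a single group chance gives about 1 in 20, but the 225 groups come from the same 20 libraries and are not independent. That rate is therefore no reference for the count. Of the 35, 14 were low values of Tet2-/- 2, the lowest library of its group in 67.5% of all genes tested. In that library Ifih1 was at 6.67 TPM, Dhx58 at 28.6, Irf9 at 48.8, Ifit2 at 14.5, Oasl2 at 29.6, Rsad2 at 15.0, Samd9l at 10.7 and Lgals3bp at 264. The GTPases there were Igtp at 74.3 TPM, Irgm1 at 56.8, Irgm2 at 23.6, Ifi47 at 170, Gbp2 at 35.2 and Gbp7 at 38.3. Each was well below the other 3 Tet2-/- libraries, for example 219.9 to 223 TPM for Ifi47. Ifi27l2a was high in Tet2-/- 2, at 240 TPM against 105 to 112 TPM in the other 3.

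High values of WT 4 were found for Stat2 (50.9 TPM), Irf7 (48.9), Mx1 (4.56), Mx2 (3.72), Xaf1 (14.9) and Sp100 (69.2), and for the mean of all 44 genes, at 0.32 against -0.13 to -0.07 in the other WT libraries. In Idh1R132H 4, Zbp1 (10.2 TPM), Mx1 (7.10), Parp14 (32.4) and Irgm1 (84.8) were high and Ifi47 (244 TPM) was low. Mx1 (4.29 TPM) and Parp14 (28.8) were high in Idh2R140Q 4, and Parp14 (29.0) was high in Idh2R172K 4. Irgm1 was high in Idh2R140Q 1 (80.3 TPM) and Ifit2 low in Idh2R140Q 2 (27.8 TPM). In Idh2R172K, Irf9 (51.8 TPM) and the mean of all 44 genes (-0.27) were low in number 2, and Oasl1 (9.56 TPM) was high in number 3.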

How the results depend on the processing

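Counts of called genes moved more than directions. Library weights gave 23 genes in Idh2R172K against WT and 37 in Tet2-/- against WT, with 32.4% and 36.9% of all genes called, 15 in Idh2R172K against Idh2R140Q (19.3%), 17 in Tet2-/- against Idh1R132H (43.3%) and 21 in Tet2-/- against Idh2R140Q (23.6%). Leaving out the number 4 libraries of WT and the Idh groups and Tet2-/- 2 gave, in the same order, 22, 34, 16, 15 and 24 genes (32.7, 31.8, 20.3, 32.7 and 23.9% of all genes), and raised the median in Tet2-/- against WT to 0.60. The pool number as a replicate block gave 18, 23, 14, 7 and 19 (22.2, 17.5, 14.6, 25 and 21.1% of all genes). Without the block these were 10, 12, 9, 1 and 7 (15.4, 7.05, 10.5, 13.5 and 9.54%). The numbers pair the samples, by the rule in the methods, in Idh2R172K against Idh2R140Q alone of these, and the block moved no count between Idh groups, or of Idh1R132H or Idh2R140Q against WT, by more than 1.5 times otherwise. The numbers of Idh2R140Q, Idh2R172K and Tet2-/- did not meet that rule with WT, although the number 4 libraries of both Idh2 groups deviated with WT 4. For Tet2-/- against WT, no filter on low values gave 4 genes (2.77% of all genes), a minimum of 5 TPM 6 (4.89%), quantile scaling 25 (17.6%) and the fit of the 2 groups alone 1 (0.317%). For Tet2-/- against Idh1R132H no filter gave 0 (4.7%), quantile scaling 6 (24.4%), the 2 groups alone 0 (3.87%), median-of-ratios scaling 6 (24.5%), rescaling without the most abundant genes 6 (20.6%) and pool sex as a covariate 3 (14.5%). For Tet2-/- against Idh2R140Q no filter gave 3 (2.18%), quantile scaling 23 (21.1%), the 2 groups alone 0 (0.0282%), median-of-ratios scaling 16 (19.5%) and rescaling 14 (16.2%). The causes of these moves were not tested.

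With 1 library left out in turn the counts ran from 8 to 18 in Idh2R172K against WT, 1 to 17 in Tet2-/- against WT, 11 to 19 in Idh2R172K against Idh1R132H, 5 to 13 against Idh2R140Q, 0 to 4 in Tet2-/- against Idh1R132H, 0 to 9 against Idh2R140Q and 15 to 20 against Idh2R172K. Where it is given above, the share of all genes called moved in such fits too. The ranges alone therefore say nothing particular of the 44. The median of the 44 genes in Idh2R172K against Idh2R140Q changed sign (-0.10 to 0.03), as did that in Tet2-/- against Idh1R132H (-0.04 to 0.17). Ranges of the other medians kept their sign, from 0.13 to 0.39 for Idh1R132H, 0.06 to 0.21 for Idh2R140Q, 0.05 to 0.19 for Idh2R172K and 0.27 to 0.47 for Tet2-/-, each against WT. Of the single-gene results 3 reversed, all without the number 4 libraries and Tet2-/- 2. In Tet2-/- against Idh1R132H, Sp100 was then 0.22 and Stat2 0.35, against lowest values of -0.18 and -0.31 with other libraries left out. In Tet2-/- against Idh2R140Q, Stat2 was 0.40, against a lowest of -0.27.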

Other observations

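Pool sex, read from Xist and Y-linked RNA, follows the pool number in WT and the Idh groups, where numbers 1 and 3 are female and 2 and 4 male, and differs in Tet2-/-, where 1 and 2 are male. Pool sex was put in the fit as an alternative, and its term was read after the data were seen. By limma 12 of 14176 genes differed between male and female pools and none of the 44 did. An unadjusted p under 0.05 was found for 6 of the 44 and for 1632 of the 14176 genes. These shares are close, so the count says nothing particular of the 44. Rtp4 in Idh2R172K had 194 and 196 TPM in the female pools and 105 and 113 TPM in the male pools, which was noticed after its values were seen and not tested.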
